A study of Mus musculus with 2 samples.

Results

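Osteoclasts are the multinucleated cells that dissolve bone, and 10 genes of their resorption apparatus, taken by symbol with earlier results of these data known, were followed among the 16614 genes listed for Foxo3 knockout (KO) and wild-type (WT) mouse cells. The members are Acp5, Ctsk, Mmp9 and Mmp14, which encode secreted or surface enzymes, Car2, Clcn7, Ostm1 and Slc4a2, which serve acid secretion, and Snx10 and Plekhm1, which serve membrane traffic. All 10 were found in both libraries and all 10 were measured, meaning at 1 FPKM or more in at least 1 library, as were 10003 genes in all. FPKM counts sequenced fragments relative to transcript length and library size, so levels may be set side by side between genes.

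The Foxo3 KO library and the WT library each came from bone marrow of C57BL/6 mice, cultured for 3 days with M-CSF, the growth factor of macrophages, and then for 2 days with RANKL, the cytokine that drives osteoclast formation. Both were made from poly-A RNA. The series addresses the role of FoxO3, a forkhead transcription factor, in osteoclast inhibition. The sources used here do not give the knockout allele, the number of mice behind each library or their age and sex, and cells without RANKL were not analysed here. With 1 library per genotype no value has a replicate error, no p-value can be given, and each difference describes these libraries alone.

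In bone, an osteoclast seals off a patch of surface, acidifies the space beneath it to dissolve mineral, and releases proteases that digest the exposed collagen. Carbonic anhydrase supplies protons, a V-ATPase pumps them out, a chloride transporter balances their charge, and an anion exchanger on the opposite face of the cell keeps the cytosol from turning alkaline. The enzymes and pumps reach the bone-facing membrane by fusion of lysosome-like vesicles, and inherited loss of the human counterpart of Car2, or of CLCN7, OSTM1, SNX10 or PLEKHM1 causes osteopetrosis, a disease of dense bone, in humans.

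Foxo3 itself stood at 0.548 FPKM in the KO library and at 10.3 FPKM in the WT library, 5.33% of the WT value. Across measured genes the libraries were close (r = 0.993 on log2 values, across genes, which are not independent replicates), and the spacing of the lowest values put KO depth at 1.40 times that of WT. Osteoclast markers had a summed level of 2056 FPKM in the KO library and 1965 FPKM in the WT library, none at 0, with Atp6v0d2 at 869 and 818 FPKM, Nfatc1 at 206 and 181 FPKM, and Dcstamp at a log2 ratio of -0.02. Macrophage markers were summed at 9620 FPKM in the KO library and 11749 FPKM in the WT library, again with none at 0. Lyz2 alone made up 5674 FPKM of that sum in the KO library and 7501 FPKM in the WT library. Markers of both cell types named by the labels and the treatment were thus detected in both libraries. In bulk RNA this does not show a separate population of each.

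The upstream sequences of 4 members are shown as the stretches just before annotated starts of these transcripts: Acp5, highest of the members in both libraries, Ctsk, the defining protease, Clcn7, and Plekhm1, which had the lowest ratio. The Acp5 window is 1 of 3 in the table and lies inside the gene as annotated, that of Clcn7 is 1 of 2, and these data do not show which start the cells used. Each holds the 250 bases before a RefSeq start on GRCm38.p6, written 5′ to 3′ in the direction of the gene, with capitals at the matches to any of the 6 motifs searched on both strands. The motifs were GTAAACA for FoxO factors, CACGTG and CATGTG, E-boxes of the kind bound by MITF and TFE factors, TGANTCA for AP-1, GGAAAA for NFAT and GAGGAAG for PU.1. GGAAAA and GAGGAAG can share bases but did not in any window shown.
Acp5 promoter (chr9:22130599-22130848, minus strand): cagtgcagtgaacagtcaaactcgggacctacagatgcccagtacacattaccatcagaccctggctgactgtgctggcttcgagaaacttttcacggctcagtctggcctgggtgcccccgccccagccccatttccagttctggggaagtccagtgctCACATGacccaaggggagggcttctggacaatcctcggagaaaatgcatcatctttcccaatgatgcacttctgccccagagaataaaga
Ctsk promoter (chr3:95498960-95499209, plus strand): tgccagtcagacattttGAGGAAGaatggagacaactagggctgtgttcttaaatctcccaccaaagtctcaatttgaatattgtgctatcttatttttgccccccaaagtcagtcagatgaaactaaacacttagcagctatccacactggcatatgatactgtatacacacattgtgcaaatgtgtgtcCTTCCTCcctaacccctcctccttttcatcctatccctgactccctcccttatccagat
Clcn7 promoter (chr17:25133141-25133390, plus strand): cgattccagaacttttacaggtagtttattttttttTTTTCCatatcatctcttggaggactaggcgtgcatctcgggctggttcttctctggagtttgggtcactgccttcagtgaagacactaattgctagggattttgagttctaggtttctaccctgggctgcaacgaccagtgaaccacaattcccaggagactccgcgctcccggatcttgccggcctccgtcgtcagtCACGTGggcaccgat
Plekhm1 promoter (chr11:103412706-103412955, minus strand): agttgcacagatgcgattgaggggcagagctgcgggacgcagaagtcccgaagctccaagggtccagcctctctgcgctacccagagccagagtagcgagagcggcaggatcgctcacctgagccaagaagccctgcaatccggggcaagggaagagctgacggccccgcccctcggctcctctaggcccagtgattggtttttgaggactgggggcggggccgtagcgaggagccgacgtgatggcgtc
RefSeq starts were matched for 8 members with 14 windows, and not for Mmp9 and Car2. GTAAACA was in 0 of the 14 windows, against 3.17% of 32851 windows of the same length over all genes. CACGTG was in 1 window, that of Clcn7 shown above, 15 to 10 bases before the start, against 6.02% of all windows, and CATGTG was in 1 window each of Acp5 and Clcn7, against 12.3%. GAGGAAG occurred in the Ctsk window only among the 14, once on each strand, against 10.6% of all windows. GGAAAA was in 1 window each of Acp5, Clcn7 and Mmp14, against 20.4%, and TGANTCA in 1 window of Snx10, against 6.75%. The Plekhm1 window held none of the 6. A match is a run of letters and not a shown binding site, and its absence says only that these letters are not in these windows.

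**Figure D1:**
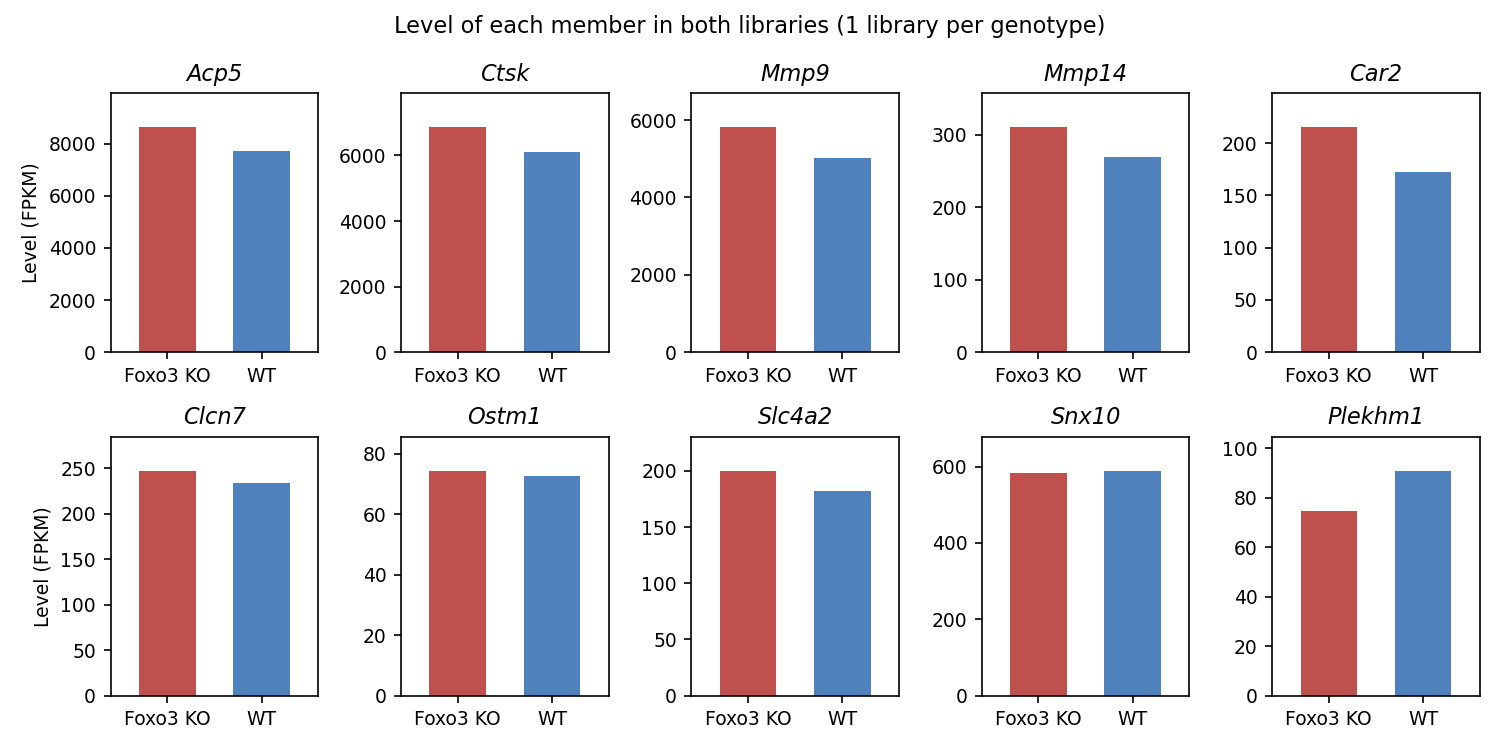
Level of each of the 10 members in FPKM (vertical axes, each starting at 0 with its own range) in the Foxo3 KO library (left bar) and the WT library (right bar), with 1 library per genotype and so no error bars. Bars of Acp5, Ctsk, Mmp9, Mmp14, Car2 and Slc4a2 stand at least 1.1-fold higher in the KO library, and that of Plekhm1 stands at 74.6 FPKM in the KO library against 90.8 FPKM in the WT library.

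The secreted enzymes were among the most abundant transcripts of both cultures. Acp5 encodes tartrate-resistant acid phosphatase (TRAP), the enzyme whose stain identifies osteoclasts. It stood at 8636 FPKM in the KO library and at 7737 FPKM in the WT library, first of all genes in the KO library and second, after the ferritin gene Ftl1, in the WT library. Ctsk encodes cathepsin K, the cysteine protease that cleaves bone collagen in the acid space. It had 6862 FPKM in the KO library and 6106 FPKM in the WT library, and ranked 3 and 4. Mmp9, the gelatinase also known as collagenase type IV, had 5815 FPKM in the KO library and 5009 FPKM in the WT library, and ranked 4 and 5. Together these 3 genes made up 3.94% of the summed FPKM of all genes in the KO library and 3.55% in the WT library. Their sum was 2460 FPKM higher in the KO library, where the sum over all genes was 9900 FPKM higher.

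These 3 enzymes differed from WT by a similar proportion. The log2 ratio of KO over WT, computed after adding 1 FPKM to each value, was 0.16 for Acp5, 0.17 for Ctsk and 0.22 for Mmp9. Acp5 stood at 1.26 times the Ctsk level in the KO library and at 1.27 times in the WT library, and Mmp9 at 0.847 and 0.820 times, ratios within a library that no scaling between libraries can alter. A difference in the number of cells of a type and a difference in RNA per cell cannot be told apart in such bulk samples.

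Mmp14 encodes MT1-MMP, a collagenase anchored in the cell membrane. Its level was 310 FPKM in the KO library and 269 FPKM in the WT library, with a log2 ratio of 0.20. Mmp9 was far more abundant than Mmp14, 18.7-fold in the KO library and 18.6-fold in the WT library. Mmp9 is also a neutrophil product and Mmp14 a stromal one, so markers of those cells were read beside them. Neutrophil markers were summed at 164 FPKM in the KO library and 170 FPKM in the WT library over 11 genes. S100a8 had 67.0 FPKM in the KO library and 70.2 FPKM in the WT library, S100a9 55.4 and 53.6 FPKM, and Ngp 22.0 and 24.5 FPKM. Retnlg alone of them was at 0, in the KO library, against 1.01 FPKM in the WT library. Of 13 stromal and osteoblast markers, Spp1, which osteoclasts and macrophages also express, had 1043 FPKM in the KO library and 1077 FPKM in the WT library. The next were Col1a1 at 3.24 and 3.35 FPKM and Col1a2 at 2.57 and 3.05 FPKM, with Lum at 0 in both libraries and Bglap and Ibsp at 0 in the WT library.

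Of the acid secretion genes, Car2 differed most. It encodes carbonic anhydrase II, the cytosolic enzyme that makes protons and bicarbonate from carbon dioxide and water, and had 215 FPKM in the KO library and 172 FPKM in the WT library. Its log2 ratio, 0.32, was the highest of the 10 and lay at percentile 97.1 of all measured genes. Slc4a2 encodes AE2, the exchanger that carries the bicarbonate out in return for chloride. It had 200.1 FPKM in the KO library and 182 FPKM in the WT library, with a log2 ratio of 0.14. Car2 thus stood at 1.08 times the Slc4a2 level in the KO library and at 0.946 times in the WT library, the one change in the order of the members. Red cell precursors also make carbonic anhydrase II. The 7 erythroid markers found were summed at 0.506 FPKM in the KO library and 0.614 FPKM in the WT library. Hbb-b1 and Slc4a1 were among those at 0 in both, and Gata1 and Alas2 were at 0 in the WT library. The globin genes Hba-a1, Hba-a2, Hbb-bs and Hbb-bt were not found under those symbols. The sum leaves them out and so cannot show whether red cell precursors were lacking.

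The chloride transporter of the lysosomal and bone-facing membrane is a complex of ClC-7, a chloride-proton exchanger encoded by Clcn7, and its small partner subunit encoded by Ostm1. Clcn7 had 248 FPKM in the KO library and 234 FPKM in the WT library, and Ostm1 had 74.3 and 72.6 FPKM. Their log2 ratios, 0.08 and 0.03, lay at percentiles 66.9 and 52.4 of all measured genes, whose median was 0.03. Clcn7 stood at 3.33 times the Ostm1 level in the KO library and at 3.22 times in the WT library, so the pair kept nearly the same proportion. Ostm1 lies on the same chromosome as Foxo3, at chr10:42583822-42702459, 307067 bases from Foxo3 (chr10:42181841-42276755).

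The traffic genes did not share the direction of the enzymes. Snx10 encodes a sorting nexin of endosomes that osteoclasts need for acid secretion, and had 584 FPKM in the KO library and 589 FPKM in the WT library, a log2 ratio of -0.01. Plekhm1 encodes an adaptor of late endosomes and lysosomes that binds RAB7, and had 74.6 FPKM in the KO library and 90.8 FPKM in the WT library. Its log2 ratio of -0.28 lay at percentile 5.45 of all measured genes. Relative to Clcn7, Plekhm1 stood at 0.301 times in the KO library and 0.388 times in the WT library, and relative to Snx10 at 0.128 and 0.154 times.

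The order of levels was the same in both libraries except for Car2 and Slc4a2. In the KO library it ran Acp5, Ctsk, Mmp9, Snx10, Mmp14, Clcn7, Car2, Slc4a2, Plekhm1, Ostm1. Plekhm1 and Ostm1, the last pair, were nearly level in the KO library, at 74.6 and 74.3 FPKM, and stood at 90.8 and 72.6 FPKM in the WT library. Without replicates no pair of neighbours in that order can be said to differ beyond its spread.

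No member reached 2-fold in either direction, as was the case for nearly all genes: 0.12% of the 10003 measured genes were at least 2-fold higher and 0.2% at least 2-fold lower in the KO library. At the smaller size of 1.1-fold, 6 of 10 members were higher, against 19.2% of all measured genes, and 1 of 10 was lower, against 14.8%. The members higher were Car2, Mmp9, Mmp14, Ctsk, Acp5 and Slc4a2, the last barely over the bound of 0.1375 with a log2 ratio of 0.1380, and the member lower was Plekhm1. Only Car2 was at least 25% higher, by a log2 ratio of 0.3222 against a bound of 0.3219, as were 2.96% of all genes, and no member was lower by that factor, as were 4.16% of all genes. The median log2 ratio of the 10 was 0.15, against 0.03 over all measured genes and 0.05 over the 1816 genes that, like all members, reached 50 FPKM in a library. Of those abundant genes 21.2% were at least 1.1-fold higher and 11.5% at least 1.1-fold lower.

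**Figure D2:**
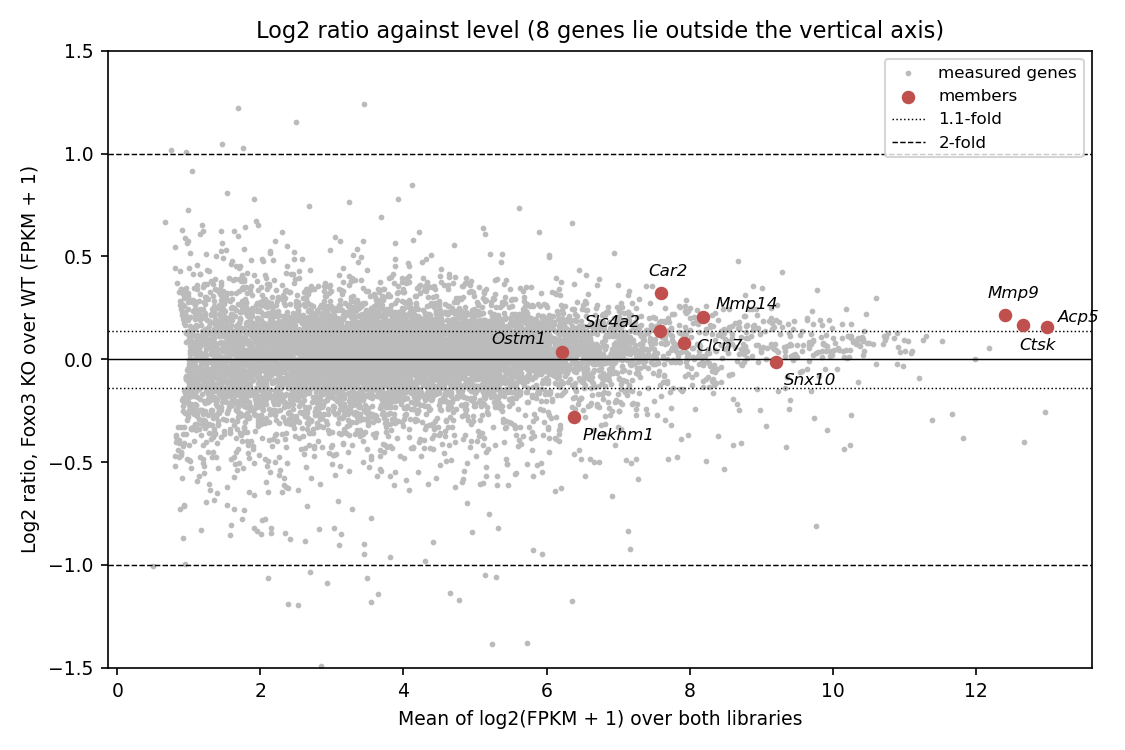
Log2 ratio of Foxo3 KO over WT, each FPKM plus 1 (vertical axis), against the mean log2 level in both libraries (horizontal axis) for 10003 measured genes (grey) and the 10 members (red), with lines at 1.1-fold and 2-fold. Car2 lies highest of the members at 0.32 and Plekhm1 lowest at -0.28, all within 2-fold, and 8 genes lie outside the vertical axis.

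The scale between the libraries mattered at these sizes. Trimmed-mean scaling divided the KO values by 1.02, after which 4 members were at least 1.1-fold higher, as Acp5 and Slc4a2 dropped below the bound, and Car2 was no longer 25% higher. Of all measured genes 14.9% were then at least 1.1-fold higher and 17.5% lower. Under trimmed-mean scaling and under centring on the median gene, 8 members kept a ratio above 0, though that of Ostm1 came down to 0.0071. Snx10 and Plekhm1 kept one below 0. Another pseudocount or minimum level cannot change the sign of a ratio, so those settings do not bear on this. After trimmed-mean scaling 50.3% of all measured genes had ratios above 0. As deposited, 57.6% of all measured genes and 66.4% of those reaching 50 FPKM had ratios above 0.

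Macrophage markers were read beside the members and lay mostly below 0. Of 13 macrophage markers measured, 8 were at least 1.1-fold lower in the KO library and 0 were higher, against 14.8% and 19.2% of all measured genes. Their median log2 ratio was -0.24. Lyz2 had 5674 FPKM in the KO library and 7501 FPKM in the WT library, while Cd68 had 1546 and 1573 FPKM and Csf1r 695 and 697 FPKM. Of 10 osteoclast markers 3 were at least 1.1-fold higher and 1 lower, against 19.2% and 14.8% of all measured genes, with a median of 0.04. Markers of T, B and NK cells were summed at 1.19 FPKM in the KO library and 0.967 FPKM in the WT library over 9 genes, none measured, with Cd3e, Nkg7 and Klrb1c among those at 0 in the KO library and Cd3e, Cd3g, Ms4a1 and Nkg7 at 0 in the WT library. The part of these cell types in the members' differences was not tested.

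Exons of some members overlap those of other genes in the annotation, and strand use in the authors' counting is not given. Slc4a2 overlaps Fastk, on the opposite strand, which had 85.6 FPKM in the KO library and 77.0 FPKM in the WT library. The log2 ratio of Fastk was 0.15, close to that of Slc4a2. Slc4a2 also overlaps Gm22333, a small nuclear RNA gene on the opposite strand, for which no values were analysed here. Acp5, Ostm1 and Plekhm1 each overlap 1 noncoding transcript on the opposite strand, for which no values were analysed here. Ctsk, Mmp9, Mmp14, Car2, Clcn7 and Snx10 overlap no other gene.

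Lists of genes that work beside the members or belong to their families were described by the same bound of 1.1-fold, for which 19.2% of all genes were higher and 14.8% lower. Of the 17 proton pump subunits listed, which deliver the acid, 16 had ratios above 0, against 57.6% of all measured genes. Of genes reaching 50 FPKM, as all listed subunits but Atp6v0a1 did, 66.4% had ratios above 0. After trimmed-mean scaling 14 subunits did, against 50.3% of all measured genes. Of the 17, 3 were at least 1.1-fold higher, with a median of 0.09. Atp6v1b2 had 1349 FPKM in the KO library and 1257 FPKM in the WT library, Atp6v0b 1060 and 987 FPKM, and Tcirg1, the osteoclast-enriched a3 subunit that is itself an osteopetrosis gene, 1054 and 924 FPKM. The 1 lower subunit of the list was Atp6v0a1, at 27.0 and 41.5 FPKM. The list leaves out some measured subunits. Atp6v1g2 had 2.04 FPKM in the KO library and 3.18 FPKM in the WT library, and Atp6v0a2 had 18.4 and 18.1 FPKM.

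Of 12 chloride channels, anion exchangers and sodium-proton exchangers measured, 2 were at least 1.1-fold higher and 3 lower, with a median of 0.08. Slc9b2, a sodium-proton exchanger induced in osteoclasts, had 336 FPKM in the KO library and 315 FPKM in the WT library. The intracellular channel genes Clic1 and Clic4 had 224 and 168 FPKM in the KO library, against 225 and 193 FPKM in the WT library. Slc26a11, an anion transporter, was at 9.81 and 12.9 FPKM. Other carbonic anhydrases were scarce beside Car2: of 4 measured, Car13 led with 14.5 FPKM in the KO library and 14.7 FPKM in the WT library, Car9 had 2.88 and 2.89 FPKM and Car14 2.37 and 1.83 FPKM, and 1 was at least 1.1-fold higher and 0 lower (median 0.06).

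**Figure D3:**
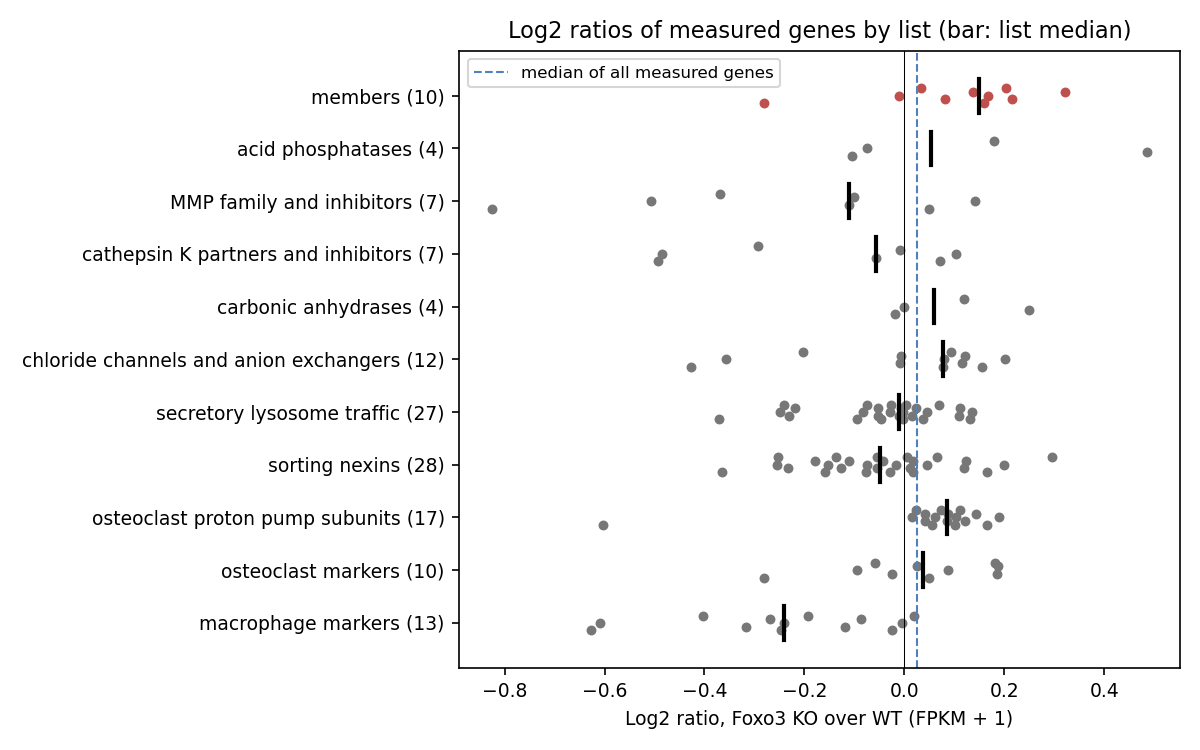
Log2 ratios of Foxo3 KO over WT (horizontal axis, each FPKM plus 1) for measured genes of each list (rows, number of genes in brackets), with a black bar at each list's median and a dashed line at the median of all measured genes. The members' median lies at 0.15, that of the proton pump subunits at 0.09 and that of the macrophage markers at -0.24.

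Matrix metalloproteinases other than the members, with their inhibitors, were few: of 24 entries 7 were measured, of which 1 was at least 1.1-fold higher and 3 lower, with a median of -0.11. The 3 lower genes were all under 10 FPKM. Mmp12 had 4.31 FPKM in the KO library and 8.41 FPKM in the WT library, Mmp8 1.72 and 2.86 FPKM, and Mmp27 3.04 and 4.22 FPKM. Bsg, an inducer of metalloproteinases, had 185 FPKM in the KO library and 168 FPKM in the WT library, Timp2, an inhibitor that also helps MT1-MMP to activate MMP2, had 141 and 151 FPKM, and Mmp19 had 8.91 and 9.70 FPKM. Mmp9 exceeded each of them in both libraries. Of 7 measured lysosomal proteases and protease inhibitors listed beside cathepsin K, 0 were at least 1.1-fold higher and 3 lower, with a median of -0.06. The cysteine protease inhibitor genes Cst3 and Cstb had 1915 and 1315 FPKM in the KO library, against 1781 and 1251 FPKM in the WT library. The 3 lower genes were Ctsd, the aspartic protease cathepsin D, at 2418 and 2964 FPKM, the legumain gene Lgmn at 252 and 355 FPKM, and Serpinb6a at 175 and 245 FPKM.

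Phosphatases listed beside Acp5 were 4 measured genes, of which 2 were at least 1.1-fold higher and 0 lower (median 0.05). Pgp, phosphoglycolate phosphatase, had 22.6 FPKM in the KO library and 15.9 FPKM in the WT library, Acp6 14.5 and 12.7 FPKM, the lysosomal Acp2 37.9 and 40.8 FPKM and Acp1 17.8 and 18.8 FPKM. Acp5 exceeded them all by orders of magnitude.

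Genes of secretory lysosome traffic, the setting of Plekhm1, had 0 of 27 at least 1.1-fold higher and 5 lower, with a median of -0.01. Rab7, the GTPase that PLEKHM1 binds, had 575 FPKM in the KO library and 578 FPKM in the WT library, and Slc37a2, a transporter of osteoclast lysosomes, 533 and 532 FPKM. Lamp1 and Lamp2, which encode the main membrane proteins of lysosomes, had 462 and 139 FPKM in the KO library, against 549 and 165 FPKM in the WT library, and were among the 5 lower. Of 28 sorting nexins other than Snx10, 3 were at least 1.1-fold higher and 7 lower, with a median of -0.05. Snx3 had 152 FPKM in the KO library and 150 FPKM in the WT library, Snx5 137 and 153 FPKM, Snx2 110 and 131 FPKM and Snx29 11.0 and 13.3 FPKM. Snx10 was the most abundant of the family in both libraries. No gene of these 8 lists reached 2-fold.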

How the data were processed

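Per the labels, each of the 2 libraries was made from poly-A RNA with an Illumina TruSeq kit. TopHat and edgeR appear in the submitters' processing notes with no version or role, beside the build mm10. The deposited values were read as FPKM from their distribution, since no header or label names the unit; the sources used here do not give the quantifier, annotation or filters. An apparent constant of 0.000001 was subtracted. A value of 0 need not mean absence of a transcript. Actr3 had 434 FPKM in the KO library and 0 in the WT library, and Adcy7 had 0 and 38.2 FPKM. The cause of such zeros was not tested, and these genes are in the counts over all genes. Read totals are not given. The relative depth came from 745 genes that were listed above 0 but below 0.05 FPKM in each library, as the most frequent WT/KO ratio. The log2 ratio is log2(KO + 1) minus log2(WT + 1), for genes at 1 FPKM or more in at least 1 library; it understates differences of low genes. Count models were not used, and size bounds of 2-fold, 1.1-fold and 25% took the place of tests. The members, lists and bounds were chosen with earlier results of these data known. Named beside the members are, for each of 8 lists, the 3 genes of highest mean level and the 2 of largest absolute ratio at 10 FPKM or more in 1 library, and the 3 highest of each marker list. Ftl1, Fastk, Actr3, Adcy7, Atp6v1g2, Atp6v0a2, Mmp8, Mmp12, Mmp27 and markers at 0 were named after their values were seen. Gene positions and exon overlaps come from GENCODE M21 on mm10, and upstream sequences from RefSeq on GRCm38.p6. Alternatives were 2 scalings, 2 pseudocounts, 3 minimum levels and 2 other bounds. The work used Python 3.11.15, matplotlib 3.10.9, pandas 2.3.3 and numpy 2.4.6. The trimmed-mean scaling and the 2-fold bound, without a pseudocount, were tested on simulated data. The bounds of 1.1-fold and 25% were not tested in that way.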

Additional observations from a re-analysis of the deposited data

How the results depend on the processing

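The members' median log2 ratio ran from 0.12 under trimmed-mean scaling and under centring on the median gene to 0.15 in all other settings, and none reached 2-fold or 1.5-fold in any. The number at least 1.1-fold higher was 4 under either scaling, 5 with a pseudocount of 5, and 6 in the other settings, with 1 lower in each. Another minimum level could not change the members' values, since all members reached 50 FPKM in a library. With a bound of 25% 1 member was higher, and in the lists 1 gene was higher and 10 lower; at 1.5-fold 2 list genes were lower. Over all genes, counts of higher and lower were 41 and 94 at 1.5-fold, 296 and 416 at 25%, 5 and 6 with a pseudocount of 5, and 2 and 4 with a minimum of 50 FPKM, an alternative chosen after seeing the data. The lower count was 39 when the pseudocount was 0.25, and with a minimum of 10 FPKM the higher count was 5. These follow from the construction of each setting. List medians moved by over 0.05 only with another minimum, which changes the genes in the list. With no minimum they were 0.0018 for acid phosphatases, -0.024 for metalloproteinases, 0 for carbonic anhydrases and -0.0029 for chloride channels and exchangers. With a minimum of 10 FPKM they were 0.020 for metalloproteinases, -0.17 for cathepsin K partners and -0.019 for carbonic anhydrases. With a minimum of 50 FPKM they were 0.020 for metalloproteinases, -0.17 for cathepsin K partners and -0.0063 for chloride channels and exchangers. The log2 ratio of Foxo3 was -3.72 with a pseudocount of 0.25 and -1.46 with 5. No paired analysis was possible because a genotype has a single library, so there is no replicate to omit either. Differences of the size seen here have no replicate spread to be set against.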

Other observations

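Measured genes within 1 Mb of Ostm1 on chromosome 10, a window chosen after the data were seen, numbered 10 with Ostm1 and Foxo3. Snx3, a sorting nexin gene between Foxo3 and Ostm1, had a log2 ratio of 0.02, and Sec63, beyond Ostm1, had 21.1 FPKM in the KO library and 22.3 FPKM in the WT library. Lace1, next to Foxo3, had 10.8 FPKM in the KO library and 9.20 FPKM in the WT library. Sesn1, which encodes the stress-induced protein sestrin, had 56.2 FPKM in the KO library and 73.6 FPKM in the WT library, a log2 ratio of -0.38. The other genes had levels under 10 FPKM in both libraries, Cep57l1, Pdss2 and Bend3 with log2 ratios from 0.17 to 0.18 and Cd24a with one of -0.29.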
